A study of Mus musculus with 17 samples.

Results

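The data described here are the transcript levels of 5 genes that are used to judge whether a β cell is mature or has lost its identity: *Ucn3*, *Aldh1a3*, *Sox9*, *Rest* and *Hes1*. They were picked by symbol from the 55357 genes of the deposited tables, with the estimated counts of all transcripts of a gene added up in each of 17 samples. *Ucn3* encodes urocortin 3, a peptide of the corticotropin-releasing factor family that β cells release with insulin and begin to make late, as they mature. *Aldh1a3* encodes an aldehyde dehydrogenase that makes retinoic acid and is switched on in failing, dedifferentiating β cells. *Sox9*, *Rest* and *Hes1* encode transcription factors that are active before the endocrine fate is taken. SOX9 maintains pancreatic progenitors and duct cells, REST silences neuronal and endocrine genes in cells of other fates, and HES1 is the effector of Notch signaling that keeps the endocrine program off.

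The samples were β cells sorted for the red reporter tdTomato from cultured islets of male mice. Control islets carried the reporter (the labels call this genotype WT), and *Pcbp2*βKO islets carried RIPCre+, *Pcbp2*Fl/Fl and the reporter, so that the RNA-binding protein PCBP2 was deleted in cells that use the rat insulin promoter. Per the methods of the study, RIP-Cre also switched on the reporter in the control islets. Islets of both genotypes were kept for 72 hours in 2.8 mM glucose (low) or 16.7 mM glucose (high), which gave 3 control samples in low glucose, 4 control samples in high glucose and 5 *Pcbp2*βKO samples at each concentration. The labels do not say whether replicates came from separate animals, so p values measure the spread between these samples, which may in part be technical. The ages of the mice are not given in the labels.

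Total estimated counts ranged from 47385513 to 82419400 per sample. *Pcbp2* was at 50.7 to 73.4 CPM and 35.0 to 45.4 CPM in control cells in low and high glucose, and at 15.5 to 19.2 CPM and 5.81 to 10 CPM in *Pcbp2*βKO cells, without overlap between the genotypes. CPM are counts relative to the size of the library after TMM scaling. All 10 markers on a β cell list (insulins, *Iapp*, *Pdx1* and others) were detected in every group. Their share of all transcripts, by TPM (transcript abundance corrected for length), was 34.9% to 39.7% in control cells in low glucose, 62.4% to 67.8% in control cells in high glucose, and 24.2% to 34.3% and 65.4% to 70.6% in *Pcbp2*βKO cells. On the first principal component, 1 control sample in high glucose (replicate 4) and 2 *Pcbp2*βKO samples in high glucose (4 and 5) scored 9.9, 21.4 and 33.2, whereas the other samples in high glucose scored 90.9 to 99.1 and those in low glucose -105.5 to -42.4. For the 5 genes, values without these 3 samples are given where a call differs, and for the gene lists where their counts differ.

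By TPM, the 5 genes fell into 3 levels of abundance. *Ucn3* was among the abundant transcripts, at ranks 177, 254, 157 and 214 of the 22784 genes tested in control cells in low and high glucose and in *Pcbp2*βKO cells in low and high glucose. *Hes1* and *Aldh1a3* were in the middle, at group means of 1.38 to 2.75 TPM and 0.361 to 7.20 TPM. The coding transcript of *Hes1* alone was lower, at group means of 0.29 to 0.64 TPM. *Sox9* and *Rest* were near the lower end, at group means of 0.0486 to 0.185 TPM and 0.00585 to 0.0631 TPM. All 5 genes passed the filter on low counts, but *Rest* did so with 0 to 73 counts in a sample and *Sox9* with as few as 1.

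**Figure D1:**
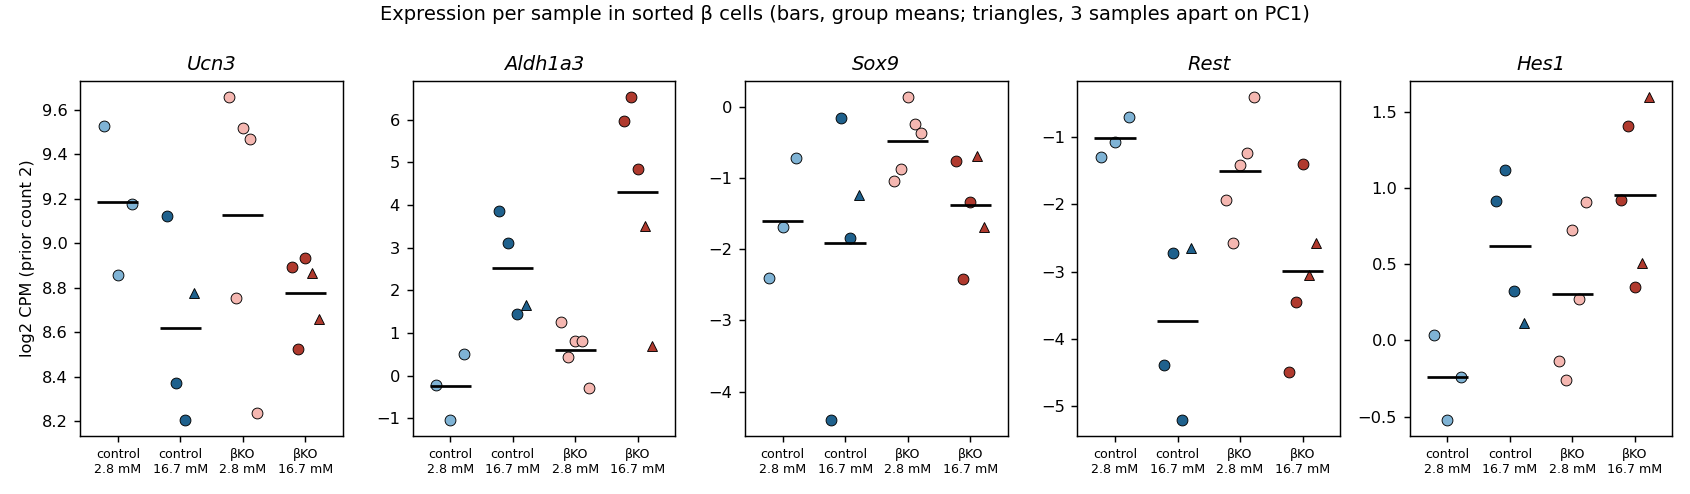
Log2 CPM (prior count of 2) of the 5 genes in each of the 17 samples, by genotype and glucose concentration, with a separate vertical axis for each gene. Horizontal bars are group means of log2 CPM and triangles are the 3 samples that stood apart on the first principal component. Control samples in high glucose lie above those in low glucose for *Aldh1a3* and *Hes1* and below them for *Rest*.

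The effect of glucose was tested within each genotype, and the effect of the knockout at each concentration, in 1 edgeR quasi-likelihood fit of all 17 samples. A gene was called when the Benjamini-Hochberg adjusted p over the 22784 genes was under 0.05 and the fold change was over 1.5. In control cells, high glucose changed 2 of the 5 genes: *Aldh1a3* was higher and *Rest* was lower. In the same comparison 13.8% of all genes were called (3153 genes, and 5024 with the replicate block described for *Ucn3*). Of the 5, 1 was called for glucose in *Pcbp2*βKO cells, again *Aldh1a3*, against 23.8% of all genes. Counts of 2 and 1 of 5 do not stand out from these shares. The knockout changed 0 of the 5 genes at 2.8 mM, against 2.04% of all genes, and 0 of the 5 at 16.7 mM, against 1.71% of all genes. At an unadjusted p under 0.05, edgeR gave 0 members at 2.8 mM and 1 at 16.7 mM, which was *Aldh1a3*, and DESeq2 called 0 members in either. The difference between the genotypes in their response to glucose (the interaction) was called for 0 of the 5 genes and for 1 gene, *Ins1*, of all those tested (0.00439%). In this interaction, 0 members had an unadjusted p under 0.05 by edgeR, and DESeq2 called 0.

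**Figure D2:**
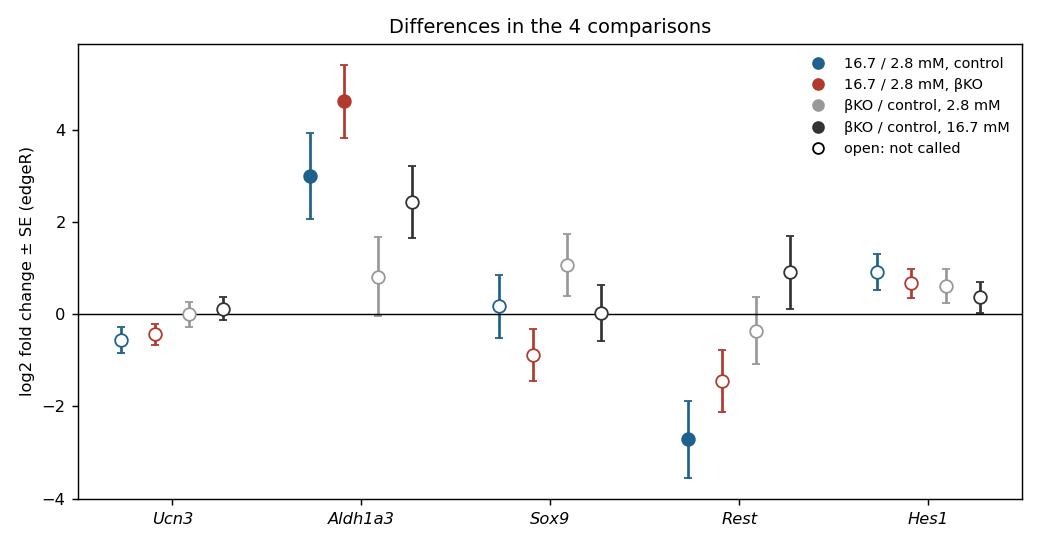
Log2 fold change with its standard error for the 5 genes, from the edgeR fit, for high against low glucose in each genotype and for *Pcbp2*βKO against control cells at each concentration. Filled points were called. The filled points are *Aldh1a3* in both glucose comparisons (3.00 and 4.63) and *Rest* in control cells (-2.71).

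*Ucn3*, the maturity marker of the set, lies on the reverse strand of chromosome 13 of GRCm39 from 3990688 to 3995349 (ENSMUSG00000044988) and has 1 annotated transcript in the tables, with 2 exons. Of the 5 genes, 1 was matched in the promoter table of RefSeq (GRCm38.p6), and its promoter is shown because the level of *Ucn3* stayed high in all 17 samples. The 250 bases before its start, at chr13:3945350-3945599 of GRCm38.p6 on the reverse strand, are written 5′ to 3′ along the gene, with capitals for each TAAT core of homeodomain sites on either strand.

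Ucn3: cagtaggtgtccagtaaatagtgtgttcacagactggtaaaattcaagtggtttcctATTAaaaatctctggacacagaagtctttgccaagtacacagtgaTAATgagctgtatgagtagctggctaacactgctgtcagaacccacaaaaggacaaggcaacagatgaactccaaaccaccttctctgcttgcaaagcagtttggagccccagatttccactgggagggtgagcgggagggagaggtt

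The TAAT core is bound by homeodomain proteins such as PDX1 and NKX6.1. It was found 2 times, starting 193 and 148 bases before the start, and 54.9% of 32851 promoter windows of the same length hold it on one strand or the other. The E-box CANNTG, a site of basic helix-loop-helix proteins such as NEUROD1, was found 2 times, 206 and 87 bases before the start, and 66.2% of the windows hold it. The letters TGCTGA, part of the site of MAF proteins such as MAFA, were not in this window, and 16.1% of the windows hold them. None of these matches overlapped another.

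In control cells, *Ucn3* was at 738, 463 and 579 CPM in low glucose and at 557, 331, 296 and 438 CPM in high glucose. The *Pcbp2*βKO samples were at 808, 431, 734, 708 and 302 CPM in low glucose and at 475, 368, 489, 467 and 404 CPM in high glucose. The ranges of low and high glucose overlapped in both genotypes, and the widest spread, 2.68-fold, was among the *Pcbp2*βKO samples in low glucose. From the highest to the lowest, the group means were 597 ± 218 CPM (*Pcbp2*βKO, low glucose, SD, n = 5), 594 ± 138 CPM (control, low glucose, n = 3), 441 ± 52.2 CPM (*Pcbp2*βKO, high glucose, n = 5) and 406 ± 118 CPM (control, high glucose, n = 4). The samples of each neighbouring pair in this order overlapped.

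The log2 fold change of *Ucn3* from low to high glucose was -0.55 in control cells (standard error, SE, 0.28, adjusted p = 0.209, edgeR) and -0.44 in *Pcbp2*βKO cells (SE 0.24, adjusted p = 0.181, edgeR), neither of them called. The labels do not say whether samples with the same replicate number belong together. With such a pairing assumed and used as a replicate block, the value in control cells was -0.62 and was called (adjusted p = 0.0460, edgeR). Without replicate 5 of the *Pcbp2*βKO cells in low glucose, which had the lowest level of that group, the value in *Pcbp2*βKO cells was -0.60 and was called (adjusted p = 0.0337, edgeR). Between the genotypes, the log2 fold change of *Ucn3* was 0.01 in low glucose (SE 0.27, adjusted p = 0.996) and 0.12 in high glucose (SE 0.25, adjusted p = 0.913), both by edgeR. Over the 9 other settings, the adjusted p for glucose ranged from 0.00369 to 0.214 in control cells and from 0.000445 to 0.26 in *Pcbp2*βKO cells.

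How much less *Ucn3* there was in high glucose depended on the scale. Insulin and other β cell transcripts took up a larger share of the library there. By TPM, *Ucn3* went from 432 ± 104 to 169 ± 51.4 in control cells and from 488 ± 198 to 173 ± 20.8 in *Pcbp2*βKO cells, without overlap of the samples. In *Pcbp2*βKO cells the nearest samples were almost level, at 206.2 TPM (low glucose, replicate 5) and 205.2 TPM (high glucose, replicate 4). On log2(TPM + 0.1), limma gave -1.37 (adjusted p = 0.00369) and -1.38 (adjusted p = 0.000445), both called, and edgeR on total counts, without TMM scaling, gave -0.94 (adjusted p = 0.0228) and -0.92 (adjusted p = 0.00488), both called. These scales also shifted the other genes: the median log2 fold change over all genes was 0.04 and 0.01 with TMM, -0.35 and -0.47 with total counts, and -0.68 and -0.86 with TPM, for control and *Pcbp2*βKO cells. Relative to the median gene, *Ucn3* stood at -0.59, -0.60 and -0.69 in control cells and at -0.45, -0.46 and -0.52 in *Pcbp2*βKO cells on the 3 scales. Its position against the median gene thus moved little between scales while the fitted value moved by more than 1.5 times. In these bulk samples, fewer cells with a transcript and less of it per cell cannot be told apart.

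**Figure D3:**
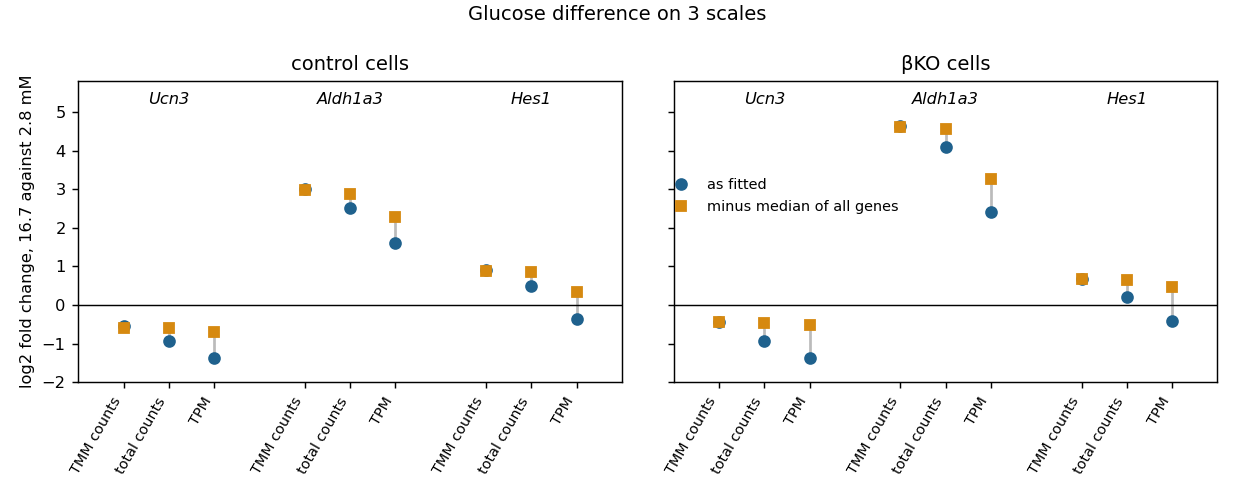
Log2 fold change of *Ucn3*, *Aldh1a3* and *Hes1* for high against low glucose on 3 scales (edgeR on TMM-scaled counts, edgeR on total counts, limma on log2(TPM + 0.1)), in control cells (left) and *Pcbp2*βKO cells (right). Circles are fitted values and squares are the same values minus the median of all genes tested. The circles of *Ucn3* spread from -0.55 to -1.37 in control cells while its squares stay between -0.59 and -0.69, and the circles of *Hes1* cross 0.

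Among the other 6 genes of the corticotropin-releasing factor family (3 ligands, 2 receptors and the binding protein CRHBP), 2 were abundant enough to be tested and 4 were under 0.1 TPM in every group. Neither was called in any comparison by edgeR. At an unadjusted p under 0.05 there was 1 such gene for glucose in *Pcbp2*βKO cells, where DESeq2 called 1 higher and edgeR on total counts called 1 lower, and there was 1 for the knockout at 16.7 mM. The genes whose log2 CPM followed that of *Ucn3* most closely over the 17 samples were *Sphk2*, *Atg4d* and *Cdk20* (Pearson's r = 0.876, 0.871 and 0.870, of 9555 genes with a mean of at least 5 CPM). By deviations from the group means they were *Med16*, *Abhd15* and *Pde4b* (r = 0.947, 0.945 and 0.939). These values share libraries, sequencing depth and, for the first measure, the 4 groups.

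Many other genes of β cell maturity and function were higher in high glucose by TMM-scaled counts, although by TPM the median of their list was -0.10 in control cells and 0.24 in *Pcbp2*βKO cells. Of a list of 20, high glucose raised 10 and lowered 0 in control cells (median log2 fold change 0.76, against 0.04 over all genes), and raised 16 and lowered 0 in *Pcbp2*βKO cells (median 1.21, against 0.01). Over all genes tested, 7.15% were called higher and 6.69% lower in control cells, and 13.4% and 10.4% in *Pcbp2*βKO cells. For the knockout, 2.04% of all genes were called at 2.8 mM and 1.71% at 16.7 mM. The counts of this list and the later ones with TMM are to be set beside these shares. The shares do not hold for other settings. With total counts (control cells) and TPM (both genotypes), far more of all genes were called lower than higher in high glucose. Counts over all genes for some of these settings are given in the section on processing at the end. In control cells the smallest adjusted p values of the list belonged to *Ins1* (log2 fold change 2.75, SE 0.30), *Ins2* (1.66, SE 0.27), the transcription factor *Neurod1* (0.80, SE 0.15) and the proinsulin-processing enzyme *Pcsk1* (1.96, SE 0.39). The smallest in *Pcbp2*βKO cells belonged to *Ins1* (5.53, SE 0.28), *Ins2* (2.29, SE 0.23), the disulfide-forming enzyme *Ero1b* (2.36, SE 0.24) and *G6pc2* (3.20, SE 0.36), a glucose-6-phosphatase of β cells. These counts moved with the scale: with total counts they were 7 higher and 0 lower in control cells and 10 higher and 1 lower in *Pcbp2*βKO cells, and with TPM 4 higher and 2 lower, and 7 higher and 4 lower. Without the 3 samples apart, they were 10 higher and 0 lower, and 13 higher and 0 lower. Relative to the median gene, the list median stayed above 0 with TMM, total counts and TPM. It was 0.72, 0.74 and 0.58 in control cells and 1.20, 1.22 and 1.09 in *Pcbp2*βKO cells. The knockout lowered 2 of the 20 at 2.8 mM, *Ins1* (log2 fold change -3.04, SE 0.26) and *G6pc2* (-1.78, SE 0.38), and without the 3 samples apart 4 were lower. At 16.7 mM, edgeR and DESeq2 called 0 of the 20, and 4 had an unadjusted p under 0.05 by edgeR.

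*Aldh1a3*, the dedifferentiation marker of the set, lies on the reverse strand of chromosome 7 from 66040638 to 66077850 of GRCm39 (ENSMUSG00000015134). Of its counts, 84.7% were assigned to the longest coding transcript (3443 bases, 13 exons) and 13.8% to a shorter coding transcript (1496 bases, 7 exons). In control cells, the samples in low glucose were at 0.833, 0.464 and 1.39 CPM and those in high glucose at 14.6, 8.59, 2.72 and 3.12 CPM, so that every sample in high glucose exceeded every sample in low glucose. Low glucose gave the *Pcbp2*βKO samples 2.38, 1.34, 1.73, 1.73 and 0.789 CPM, and high glucose gave 62.8, 92.4, 28.7, 11.4 and 1.59 CPM. The first 4 of these high-glucose samples were above all those in low glucose, whereas replicate 5 was within the low-glucose range. The levels in that group spanned 58.0-fold, the widest range of any group and member with counts in every sample.

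High glucose raised *Aldh1a3* 8.03-fold in control cells (log2 fold change 3.00, SE 0.94, adjusted p = 0.0374, edgeR) and 24.7-fold in *Pcbp2*βKO cells (4.63, SE 0.80, adjusted p = 0.000308, edgeR). The call in *Pcbp2*βKO cells stood in all 10 fits that left out 1 sample (log2 fold change 4.03 to 4.94) and under all 9 other settings, with values from 2.41 by TPM to 5.23 without the 3 samples apart. The call in control cells was lost with TPM (log2 fold change 1.61, adjusted p = 0.143, limma) and in 5 of 7 fits that left out 1 sample, namely replicate 1, 2 or 3 in low glucose (adjusted p = 0.119, 0.153 and 0.0610, edgeR) and replicate 1 or 2 in high glucose (adjusted p = 0.103 and 0.0719, edgeR). Over these 7 fits, the log2 fold change was 2.42 to 3.47. Without the 3 samples apart it was 3.24 (adjusted p = 0.00095, edgeR).

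Between the genotypes, *Aldh1a3* in high glucose was at 39.4 ± 37.7 CPM (SD, n = 5) in *Pcbp2*βKO cells and at 7.25 ± 5.56 CPM (SD, n = 4) in control cells. This 5.44-fold difference did not pass the adjusted threshold (log2 fold change 2.44, SE 0.78, adjusted p = 0.157, edgeR), and the samples overlapped. Over 9 other settings, the adjusted p ranged from 0.0126 to 0.5, the latter with TPM. Without replicate 5 of the *Pcbp2*βKO cells, the value was 2.75 and was called (adjusted p = 0.0241, edgeR), and without the 3 samples apart it was 2.82 and was called (adjusted p = 0.0126, edgeR). It was also called without a filter on low counts (2.46, adjusted p = 0.0292, edgeR), and it was not called by DESeq2 (adjusted p = 0.0599). In low glucose the means were 1.59 ± 0.585 CPM (SD, n = 5) and 0.896 ± 0.466 CPM (SD, n = 3), with overlap of the samples and a log2 fold change of 0.82 (SE 0.85, adjusted p = 0.767, edgeR). The test of the difference in glucose response gave 1.62 (SE 1.11, adjusted p = 1, edgeR). In order of level, the groups were thus *Pcbp2*βKO in high glucose, control in high glucose, *Pcbp2*βKO in low glucose and control in low glucose, and of the neighbours in this order the samples of control in high glucose and *Pcbp2*βKO in low glucose did not overlap.

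The 3 genes with the levels most similar to those of *Aldh1a3* over the 17 samples were *Hmmr*, whose product acts at the mitotic spindle, *Pbk*, which encodes a mitotic kinase, and *Ube2c*, which encodes an enzyme of the anaphase-promoting complex (Pearson's r of log2 CPM = 0.951, 0.951 and 0.947, of 9555 genes). *Hmmr* was at 6.73, 5.99, 1.55 and 0.953 CPM in control cells in high glucose, and at 24.8, 15.9, 32.1, 5.51 and 0.527 CPM in *Pcbp2*βKO cells in high glucose. Replicate 5 was the lowest *Pcbp2*βKO sample of high glucose for *Hmmr* as for *Aldh1a3*, and the same held for *Pbk* (0.257 CPM, against 11.9 to 59.1 in the other 4) and *Ube2c* (0.193 CPM, against 5.69 to 34.0). The 3 genes were picked for their likeness to *Aldh1a3* over these same 17 samples. Levels and glucose differences that they share with it are thus not independent of the choice. *Hmmr* differed between low and high glucose by 3.00 on the log2 scale in control cells (adjusted p = 0.0426, edgeR) and 4.01 in *Pcbp2*βKO cells (adjusted p = 0.000941, edgeR), both called. *Pbk* and *Ube2c* were called in *Pcbp2*βKO cells (5.32 and 4.60) and not in control cells (3.62 and 3.41, adjusted p = 0.0708 and 0.0596, edgeR). By deviations from the group means, the closest genes were *Galns*, *Ldlrad3* and *Ncstn* (r = 0.933, 0.915 and 0.907). The part of the level of these genes, or of the position on the first principal component, in the differences of *Aldh1a3* was not tested.

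**Figure D4:**
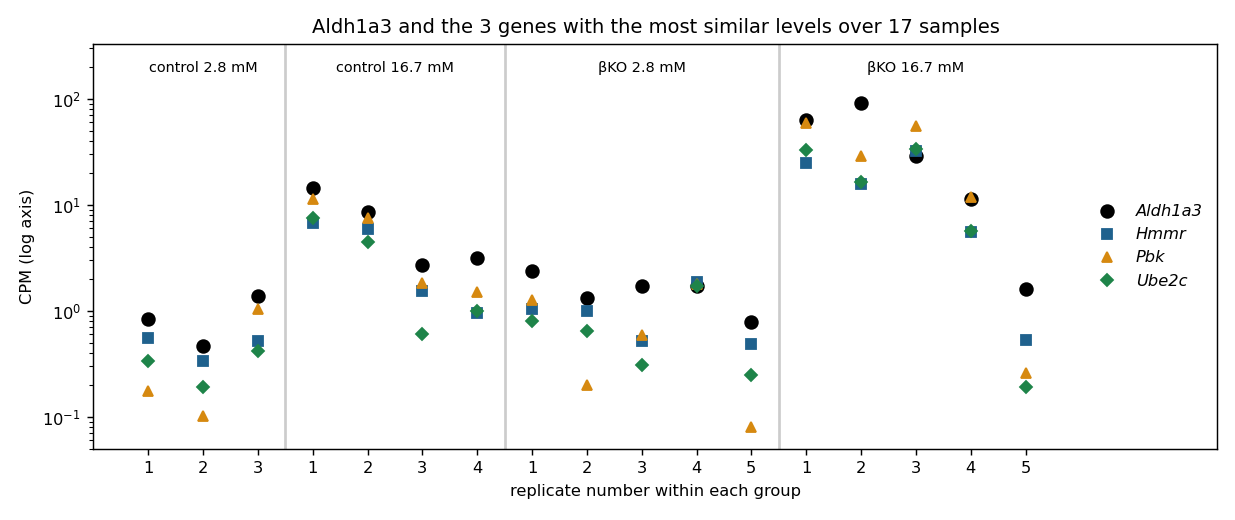
CPM (log axis) of *Aldh1a3*, *Hmmr*, *Pbk* and *Ube2c* in each of the 17 samples, by group and replicate number. In control cells all 4 genes are higher in replicates 1 and 2 of high glucose than in replicates 3 and 4, and in high glucose replicate 5 of the *Pcbp2*βKO cells lies at 1.59 CPM for *Aldh1a3* and at 0.193 to 0.527 CPM for the other 3.

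Other genes of retinoid metabolism and signaling were for the most part low. Of a list of 21, 11 were tested and 10 were under 0.1 TPM in every group. In control cells, high glucose raised 1, the retinol dehydrogenase *Dhrs9* (log2 fold change 4.43, SE 1.21, from 0.229 ± 0.178 to 4.97 ± 6.43 CPM), and lowered 1, the retinol carrier *Rbp4* (-1.26, SE 0.41). It lowered *Rbp4* in *Pcbp2*βKO cells too (-1.07, SE 0.34) and raised 0 there. With total counts 1 was higher and 2 lower, and 0 higher and 3 lower, and with TPM, on 10 genes, 1 was higher and 5 lower, and 0 higher and 7 lower, in control and *Pcbp2*βKO cells. With the replicate block 1 was higher and 2 lower in control cells. With TMM, the medians over the 11 genes were -0.11 and -0.13, against 0.04 and 0.01 over all genes, of which 13.8% and 23.8% were called. The knockout lowered *Dhrs9* at 16.7 mM (-3.77, SE 0.94), with 0 raised by edgeR. In that comparison DESeq2 called 1 higher and 1 lower, and limma on TPM called 0 of 10 genes. At 2.8 mM, edgeR and DESeq2 called 0 of the 11, and 1 had an unadjusted p under 0.05 by edgeR, while 1 was called higher without the 3 samples apart. *Rbp4* is also a marker of delta cells. The 4 delta cell markers summed to 251 to 391 CPM and 148 to 336 CPM in control cells in low and high glucose and to 481 to 1320 CPM and 198 to 566 CPM in *Pcbp2*βKO cells, and their part in the result for *Rbp4* was not tested.

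A list of 20 progenitor and dedifferentiation markers, of which 17 were tested, was split in its response. High glucose raised 3 and lowered 1 in control cells (median log2 fold change 0.31, against 0.04 over all genes, of which 13.8% were called). It raised 5 and lowered 2 in *Pcbp2*βKO cells (median 0.08, against 0.01 over all genes, of which 23.8% were called). With the replicate block, the counts in control cells were 3 higher and 5 lower. *Slc5a10*, a sugar transporter, rose by a log2 fold change of 6.37 in control cells (SE 0.68) and 6.57 in *Pcbp2*βKO cells (SE 0.55). *Aass*, an enzyme of lysine breakdown, rose by 3.41 (SE 0.96) and 5.70 (SE 0.88), and *Serpina7*, a thyroxine-binding globulin, by 3.75 (SE 1.03) and 2.74 (SE 0.78). *Myc* fell by a log2 value of 1.72 and 2.16 (SEs 0.51 and 0.44). *Npy*, a neuropeptide of immature β cells, rose in *Pcbp2*βKO cells (2.96, SE 0.71), and the knockout lowered it at both concentrations (-5.71, SE 0.81, and -2.79, SE 0.69). *Neurog3*, the factor that starts the endocrine program, was not called in any comparison of the edgeR fit of all 17 samples with TMM. It was picked for mention after its values were seen. It was at 1.68 ± 0.721 and 0.973 ± 0.759 CPM in control cells in low and high glucose and at 5.28 ± 2.06 and 3.24 ± 0.546 CPM in *Pcbp2*βKO cells (log2 fold change for the knockout 1.65 and 1.73, adjusted p = 0.0927 and 0.0527, edgeR). With total counts, the list gave 3 higher and 1 lower in control cells and 5 higher and 6 lower in *Pcbp2*βKO cells, with medians of -0.08 and -0.45. With TPM, on 14 genes, it gave 2 higher and 4 lower, and 4 higher and 5 lower, and without the 3 samples apart 4 higher and 4 lower, and 6 higher and 1 lower. Relative to the median gene, the list median was 0.270, 0.268 and 0.163 in control cells with TMM, total counts and TPM. In *Pcbp2*βKO cells it was 0.066, 0.021 and 0.502. For the knockout, the list gave 0 higher and 1 lower at both concentrations with edgeR, and 1 higher and 1 lower at both with DESeq2. Without the 3 samples apart it gave 1 higher and 2 lower at 2.8 mM and 1 higher and 1 lower at 16.7 mM.

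**Figure D5:**
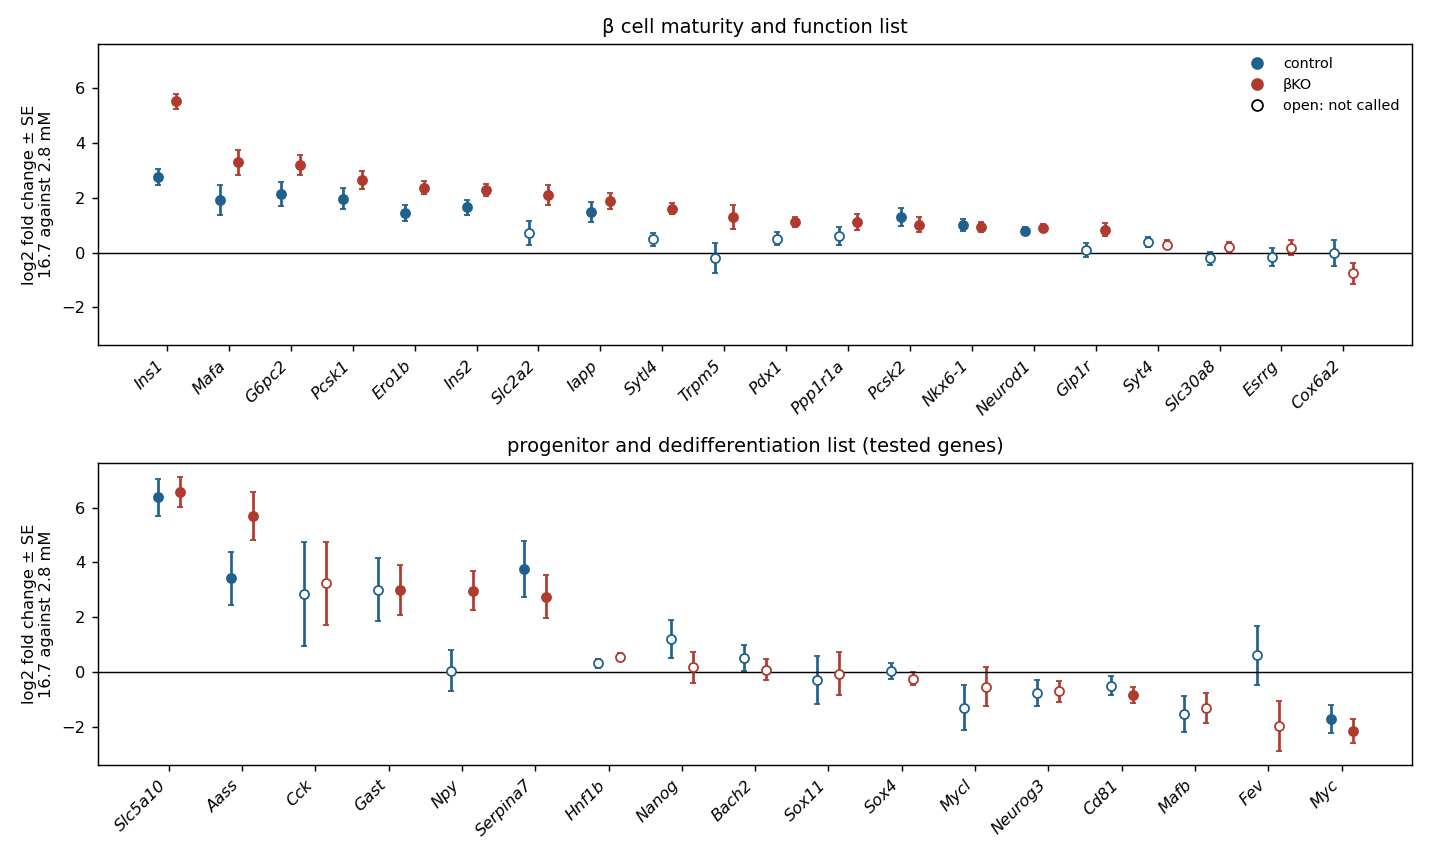
Log2 fold change with its standard error for high against low glucose in control and *Pcbp2*βKO cells, for the 20 genes of the maturity and function list (top) and the 17 tested genes of the progenitor and dedifferentiation list (bottom), sorted by the value in *Pcbp2*βKO cells. Filled points were called. In the top panel all filled points lie above 0, and in the bottom panel *Slc5a10* is highest and *Myc* lowest in *Pcbp2*βKO cells.

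A further list held 20 genes that are kept off in mature β cells (disallowed genes), of which 19 were tested. High glucose raised 0 and lowered 1 in control cells, the peroxide-degrading enzyme catalase, *Cat* (log2 fold change -1.71, SE 0.40), while DESeq2 called 2 higher and 2 lower and the replicate block gave 2 higher and 3 lower. It raised 2 and lowered 5 in *Pcbp2*βKO cells, where 23.8% of all genes were called (13.8% in control cells). The median of the list was -0.80 there, against 0.01 over all genes. The 4 smallest adjusted p values there belonged to *Cat* (-1.75, SE 0.34), the mitochondrial aminotransferase *Oat* (1.89, SE 0.45), the glutathione transferase *Mgst1* (-2.79, SE 0.71) and lactate dehydrogenase A, *Ldha* (3.22, SE 0.91). Without the 3 samples apart, the counts were 2 higher and 2 lower in control cells and 2 higher and 7 lower in *Pcbp2*βKO cells, with total counts 0 and 2, and 2 and 10, and with TPM, on 13 genes, 0 and 4, and 0 and 8. The knockout lowered *Mgst1* at 16.7 mM (-5.37, SE 0.76). At 2.8 mM, edgeR and DESeq2 called 0 of the 19, and 1 had an unadjusted p under 0.05 by edgeR.

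*Rest* lies on the forward strand of chromosome 5 from 77408131 to 77434284 of GRCm39 (ENSMUSG00000029249). In control cells it had 33, 35 and 54.2 estimated counts in low glucose (0.382, 0.451 and 0.591 CPM) and 1, 7, 0 and 9.1 estimated counts in high glucose (0.0205, 0.125, 0 and 0.132 CPM). The count of 0 allows a level of up to 0.0504 CPM (3 counts, counting error only), which is still under every sample in low glucose, and the groups did not overlap. Among *Pcbp2*βKO samples, *Rest* was at 0.235, 0.141, 0.350, 0.399 and 0.729 CPM in low glucose and at 0.0171, 0.0642, 0.354, 0.0938 and 0.141 CPM in high glucose. There, replicate 3 in high glucose was within the low-glucose range, replicate 5 was level with its lower end, and the other 3 were under it. The 2 coding transcripts, *Rest-201* and *Rest-202*, took 25.7% and 74.3% of its counts summed over all samples. No sample held such a mix. *Rest-201* had counts only in low glucose, in control replicate 3 and *Pcbp2*βKO replicates 2 and 4, where it took all or nearly all of them.

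High glucose lowered *Rest* in control cells (log2 fold change -2.71, SE 0.84, adjusted p = 0.0357, edgeR). The value in *Pcbp2*βKO cells was -1.45 and was not called (SE 0.67, adjusted p = 0.117, edgeR). The call in control cells stood in 7 of 8 other settings, among them total counts, DESeq2 and the replicate block (-3.55), and was lost in a fit of only these 7 samples (adjusted p = 0.0511, edgeR). It was also lost in 5 of 7 fits that left out 1 sample, namely replicate 1, 2 or 3 in low glucose (adjusted p = 0.0652, 0.0853 and 0.0870, edgeR) and replicate 1 or 3 in high glucose (adjusted p = 0.0900 and 0.0793, edgeR), with log2 fold changes of -3.23 to -2.31 over the 7. For *Pcbp2*βKO cells, the difference was called with total counts (-1.93, adjusted p = 0.0323, edgeR) and without replicate 3 in high glucose (-2.17, adjusted p = 0.0306, edgeR). The interaction test of the 2 glucose responses of *Rest* gave 1.26 (SE 1.07, adjusted p = 1, edgeR), which was not called. Between the genotypes the log2 fold change was -0.35 in low glucose (SE 0.72, adjusted p = 0.901) and 0.91 in high glucose (SE 0.80, adjusted p = 0.746), both by edgeR. The order of the group means was control in low glucose (0.475 ± 0.106 CPM, SD, n = 3), *Pcbp2*βKO in low glucose (0.371 ± 0.224 CPM, n = 5), *Pcbp2*βKO in high glucose (0.134 ± 0.131 CPM, n = 5) and control in high glucose (0.0693 ± 0.0688 CPM, n = 4), and each neighbouring pair overlapped.

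*Rest* is also expressed by cells other than β cells. The 9 macrophage markers on a fixed list, each detected in every group, summed to 87.4 to 166 CPM in control cells in low glucose and 39.0 to 107 CPM in high glucose, and to 50.1 to 199 CPM and 21.5 to 112 CPM in *Pcbp2*βKO cells. Of these 9, high glucose lowered 2 and raised 0 in control cells, *Csf1r* (log2 fold change -2.62, SE 0.68) and *Tyrobp* (-2.79, SE 0.92), against 13.8% of all genes called. It lowered 7 and raised 1 (*C1qa*) in *Pcbp2*βKO cells, against 23.8% of all genes called. When the 3 samples apart were left out, 5 were lower and 0 higher in control cells and 7 lower and 0 higher in *Pcbp2*βKO cells, and with the replicate block 4 were lower in control cells. The 5 Schwann cell markers summed to 6.64 to 10.2 CPM and 1.72 to 6.20 CPM in control cells and to 7.01 to 10.7 CPM and 3.92 to 4.86 CPM in *Pcbp2*βKO cells. Of these 5, 2 had no counts in any control sample and 3 were tested, so the sum rests on few genes. High glucose raised 0 and lowered 1 of the 3 in control cells (median 0.27), and raised 1 and lowered 1 in *Pcbp2*βKO cells (median -0.05). The sums of both lists were in most samples lower in high glucose, as was *Rest*. Those of 10 stellate cell or fibroblast markers were higher there. They were at 1.10 to 2.45 CPM and 7.16 to 15.7 CPM in control cells in low and high glucose. In *Pcbp2*βKO cells they were at 0.882 to 2.77 CPM and 9.33 to 14.5 CPM. The part of any of these cells in the difference of *Rest* was not tested.

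REST acts with corepressors, and 12 of these (among them *Rcor1*, *Sin3a*, *Hdac1* and *Kdm1a*) were all tested. High glucose and the knockout changed 0 of the 12 by edgeR and by DESeq2, with medians of -0.15 and -0.05 for glucose in control and *Pcbp2*βKO cells. At an unadjusted p under 0.05 edgeR gave 3 and 6 in these 2 comparisons, and 1 and 0 for the knockout at 2.8 and 16.7 mM. Without the 3 samples apart, 3 were lower in each glucose comparison, and with the replicate block 3 were lower in control cells. With total counts 4 and 5 were lower, and with TPM 9 and 10, where the median over all genes was itself -0.68 and -0.86. Relative to the median gene, the list median was -0.187, -0.194 and -0.331 in control cells with TMM, total counts and TPM. In *Pcbp2*βKO cells it was -0.061, -0.051 and -0.295. Of 30 neuronal and endocrine genes that REST is known to silence, 28 were tested. High glucose raised 6 and lowered 2 in control cells (median 0.49, against 0.04 over all genes, of which 13.8% were called). It raised 9 and lowered 3 in *Pcbp2*βKO cells (median 0.43, against 0.01 over all genes, of which 23.8% were called). Among those with the smallest adjusted p values were the vesicle protein *Syp* (1.46 and 1.73, SEs 0.28 and 0.23), the release factor *Unc13a* (1.10, SE 0.23, in control cells), the granin *Scg2* (1.17, SE 0.21, in *Pcbp2*βKO cells), the potassium channel *Kcnh2* (-1.30 and -1.13, SEs 0.23 and 0.19) and the adhesion protein *L1cam* (-2.15 and -2.0, SEs 0.47 and 0.40). The balance of called genes turned with the scale. With total counts the list gave 2 higher and 5 lower, and 4 higher and 5 lower. With TPM it gave 0 higher and 6 lower, and 1 higher and 9 lower. Relative to the median gene, the list median stayed above 0 with TMM, total counts and TPM. It was 0.45, 0.43 and 0.35 in control cells and 0.41, 0.40 and 0.42 in *Pcbp2*βKO cells. Without the 3 samples apart the list gave 10 higher and 2 lower, and 11 higher and 3 lower. The knockout lowered 1, the glutamate receptor *Grin1*, at 2.8 mM (-1.74, SE 0.30). At 16.7 mM edgeR called 0, with 8 at an unadjusted p under 0.05, and DESeq2 called 3 lower. edgeR called 3 lower at each concentration when the 3 samples apart were left out.

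*Sox9* lies on the forward strand of chromosome 11 from 112673009 to 112678586 of GRCm39 (ENSMUSG00000000567) and has 1 transcript in the tables. In control cells it was at 0.162, 0.284 and 0.580 CPM in low glucose and at 0.0205, 0.873, 0.252 and 0.396 CPM in high glucose, where the lowest and highest samples were 42.7-fold apart. The *Pcbp2*βKO samples had *Sox9* at 0.458, 0.516, 1.07, 0.815 and 0.749 CPM in low glucose and at 0.565, 0.161, 0.370, 0.589 and 0.283 CPM in high glucose. On this scale the samples overlapped in all 4 comparisons. By TPM, the *Pcbp2*βKO samples in low glucose (0.185 ± 0.078) and high glucose (0.049 ± 0.023) did not overlap. The *Pcbp2*βKO cells in low glucose were highest, at 0.722 ± 0.246 CPM (SD, n = 5), and the other 3 groups had means of 0.393 ± 0.184 (*Pcbp2*βKO, high glucose), 0.385 ± 0.360 (control, high glucose) and 0.342 ± 0.215 CPM (control, low glucose).

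None of these differences in *Sox9* was called by edgeR. The log2 fold changes were 0.17 for glucose in control cells (SE 0.69, adjusted p = 0.903), -0.87 for glucose in *Pcbp2*βKO cells (SE 0.56, adjusted p = 0.269), 1.07 for genotype in low glucose (SE 0.67, adjusted p = 0.551) and 0.02 for genotype in high glucose (SE 0.61, adjusted p = 0.996). The sign of the first and last of these values turned when single samples were left out. With total counts, the value for glucose in *Pcbp2*βKO cells was -1.365 and was not called (adjusted p = 0.0694, edgeR). Relative to the median gene it was -0.90 with total counts and -0.885 with TMM. The standard errors of 0.56 to 0.69 on the log2 scale set how small a difference could be seen at these counts. SOX9 marks duct cells. The 10 duct cell markers summed to 1080 to 1370 CPM and 859 to 1910 CPM in control cells in low and high glucose and to 1010 to 1440 CPM and 878 to 1330 CPM in *Pcbp2*βKO cells. The 7 alpha cell markers were highest in the group in which *Sox9* was highest, at 1820 to 9650 CPM in *Pcbp2*βKO cells in low glucose, against 611 to 2780 CPM over the other 3 groups. So were the 4 delta cell markers (481 to 1320 CPM, against 148 to 566) and the 2 PP cell markers (1430 to 7430 CPM, against 368 to 1460). Within that group, *Sox9* was highest in replicate 3, where the alpha cell markers were at 2290 CPM, and these markers were highest in replicate 4. The part of these cells in the level of *Sox9* was not tested.

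*Hes1* lies on the forward strand of chromosome 16 from 29882134 to 29886643 of GRCm39 (ENSMUSG00000022528). In control cells it was at 0.995, 0.670 and 0.820 CPM in low glucose and at 1.86, 2.14, 1.23 and 1.06 CPM in high glucose, without overlap on this scale. By CPM of total counts and by TPM, these control samples overlapped. The *Pcbp2*βKO samples had *Hes1* at 0.882, 0.810, 1.62, 1.18 and 1.85 CPM in low glucose and at 1.86, 2.62, 1.25, 1.39 and 2.99 CPM in high glucose, with overlap. The group means were, from the lowest, control in low glucose (0.829 ± 0.163 CPM, SD, n = 3), *Pcbp2*βKO in low glucose (1.27 ± 0.455 CPM, n = 5), control in high glucose (1.57 ± 0.513 CPM, n = 4) and *Pcbp2*βKO in high glucose (2.02 ± 0.761 CPM, n = 5), and each neighbouring pair overlapped.

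The log2 fold change of *Hes1* for high against low glucose was 0.92 in control cells (SE 0.39, adjusted p = 0.119) and 0.67 in *Pcbp2*βKO cells (SE 0.31, adjusted p = 0.117), neither called by edgeR. Between the genotypes it was 0.61 in low glucose (SE 0.37, adjusted p = 0.530) and 0.37 in high glucose (SE 0.33, adjusted p = 0.757). For the sum of all transcripts of *Hes1*, the direction of the glucose difference depended on the scale. With total counts it was 0.50 and 0.19, and with TPM -0.35 and -0.40 (adjusted p = 0.471 and 0.265, limma), whereas relative to the median gene it stayed above 0 on each scale, at 0.88, 0.84 and 0.32 in control cells and at 0.66, 0.66 and 0.45 in *Pcbp2*βKO cells. Of the counts of *Hes1*, 60.5% were assigned to its coding transcript of 1468 bases, and the rest to 3 short noncoding transcripts of 344, 406 and 653 bases, which weigh more in TPM than in counts. The coding share was 48.0% and 66.9% in control cells in low and high glucose, and 61.7% and 60.2% in *Pcbp2*βKO cells. By TPM, the coding transcript alone rose from 0.29 ± 0.030 to 0.43 ± 0.070 in control cells, without overlap. In *Pcbp2*βKO cells it was at 0.64 ± 0.29 and 0.49 ± 0.23 TPM, with overlap.

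Of 28 other genes of the Notch pathway, 24 were tested and 7 were under 0.1 TPM in every group. High glucose raised 2 and lowered 0 in control cells (median log2 fold change 0.30, against 0.04 over all genes, of which 13.8% were called) and raised 5 and lowered 2 in *Pcbp2*βKO cells (median 0.39, against 0.01 over all genes, of which 23.8% were called). The ligand *Jag2* rose by 1.35 and 1.51 (SEs 0.31 and 0.25) and the receptor *Notch4* by 1.46 and 1.91 (SEs 0.40 and 0.32). In *Pcbp2*βKO cells the receptor *Notch1* rose (0.99, SE 0.19) and the ligand *Jag1* fell (-1.35, SE 0.33). With total counts, 1 was higher and 0 lower, and 3 higher and 3 lower, and with TPM 1 higher and 5 lower, and 1 higher and 10 lower, in control and *Pcbp2*βKO cells. Relative to the median gene, the list median was 0.261, 0.250 and 0.265 in control cells with TMM, total counts and TPM. In *Pcbp2*βKO cells it was 0.382, 0.385 and 0.213. Without the 3 samples apart, of 22 tested, 3 were higher and 2 lower, and 4 higher and 3 lower. The knockout changed 0 of the 24 at either concentration by edgeR, with 3 at an unadjusted p under 0.05 in each, and DESeq2 called 1 lower at 2.8 mM and 0 at 16.7 mM. At 16.7 mM, edgeR called 1 lower when the 3 samples apart were left out. The 9 endothelial markers summed to 4.52 to 5.60 CPM and 5.14 to 8.76 CPM in control cells and to 4.67 to 6.88 CPM and 5.30 to 8.02 CPM in *Pcbp2*βKO cells, and their part in these differences was not tested.

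Over the 17 samples, Pearson's r of log2 CPM between pairs of them ranged from -0.589 (*Aldh1a3* and *Rest*) to 0.525 (*Aldh1a3* and *Hes1*). After the group means were subtracted, it ranged from -0.241 (*Aldh1a3* and *Rest*) to 0.365 (*Sox9* and *Rest*). The genes closest to *Sox9* by log2 CPM were *Commd1b*, *Yaf2* and *Chuk* (r = 0.811, 0.745 and 0.743), those closest to *Rest* were *Tcea2*, *Zfp94* and *Fam168b* (r = 0.851, 0.827 and 0.822), and those closest to *Hes1* were *Zfp672*, *Tufm* and *Kctd11* (r = 0.866, 0.859 and 0.856). By deviations from the group means they were *Commd1b*, *Taok1* and *Suz12* for *Sox9* (r = 0.780, 0.749 and 0.732), *Ddb2*, *Zdbf2* and *Erc2* for *Rest* (r = 0.768, 0.718 and 0.714), and *Pcyox1l*, *Luzp1* and *H1f4* for *Hes1* (r = 0.841, 0.813 and 0.811). These correlations describe the 17 libraries, which share their groups and depths.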

How the data were processed

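RNA from sorted β cells was sequenced in 17 samples. The authors pseudoaligned the reads to the GRCm39 transcriptome with kallisto and deposited its output per transcript, as estimated counts without normalization across libraries and as TPM, which are corrected for effective length and scaled to a fixed sum. Insulin takes a large and varying share of each library, and with TPM or total counts the median gene is lower in high glucose.

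Estimated counts were summed per gene and rounded. edgeR 4.0.16 (R 4.3.3) was run with TMM factors, its expression filter and 4 group means over all 17 samples, after tests on simulated data. The batch factor of the study has levels not given in the sources used here and was not used. Log2 CPM used a prior count of 2. Standard errors were computed from the F statistic. Alternatives were DESeq2 1.42.0, limma 3.58.1 on log2(TPM + 0.1) for genes with a mean of at least 0.1 TPM, other scalings and filters, and left-out samples. No library duplicated another.

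The 5 genes and the gene lists were chosen with earlier results of these data known, so that list counts are descriptions. From each list, up to 4 called genes per comparison were named, by smallest adjusted p. Likeness was measured over genes with a mean of at least 5 CPM, without predicted genes. Replicate numbers were checked by the correlation of same-numbered samples' deviations from group means, which was 0.123 to 0.258 between the control groups, over 0.1 for each pair, and at or under 0.1 for at least 1 pair in the other comparisons.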

Additional observations from a re-analysis of the deposited data

How the results depend on the processing

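Over the whole table, DESeq2 called 835 genes for the knockout at 2.8 mM, 721 at 16.7 mM and 32 for the interaction. Total counts gave 4837 for glucose in control cells (782 higher, 4055 lower, against 1629 and 1524 with TMM). Limma on TPM tested 20893 genes. It gave 8712 for glucose in control cells (399 higher, 8313 lower), 12050 in *Pcbp2*βKO cells (624 higher, 11426 lower, against 3056 and 2375) and 264 for the knockout at 2.8 mM. A fit of only the groups compared gave 238 for the knockout at 16.7 mM, no filter gave 15 for the interaction, and leaving out the 3 samples apart gave 4898 for glucose in control cells, 587 for the knockout at 16.7 mM and 2 for the interaction. With the replicate block within genotype, 17 were called for the interaction and 5024 for glucose in control cells. When single samples were omitted, the counts were 1382 to 4480 and 4640 to 5742 for glucose in control and *Pcbp2*βKO cells, 242 to 492 and 213 to 652 for the knockout at 2.8 and 16.7 mM, and 0 to 2 for the interaction. The counts moved by over 1.5 times without control replicate 1 or 2 in low glucose (1990 and 1382 for glucose in control cells), without control replicate 3 in low glucose (242 for the knockout at 2.8 mM and 0 for the interaction), and without control replicate 3 or 4 in high glucose (213 and 652 for the knockout at 16.7 mM). The interaction had 2 calls without replicate 2 of either genotype in low glucose or without *Pcbp2*βKO replicate 5 in high glucose.

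Of the 5 genes, *Ucn3* became called for glucose with total counts (-0.94 in control, -0.92 in *Pcbp2*βKO cells), with TPM (-1.37 and -1.38) and, in control cells, with the replicate block (-0.62). *Rest* became called in *Pcbp2*βKO cells with total counts (-1.93) and lost its call in control cells when only these groups were fitted (-2.71). *Aldh1a3* lost its call in control cells with TPM (1.61), and for the knockout at 16.7 mM it became called without a filter (2.46), without the 3 samples apart (2.82) and with a replicate block across genotypes (2.48), whose samples share only a number. The replicate block within genotype, an assumed pairing, changed no other call of a member. Signs turned for values near 0 or on another scale: *Sox9* for glucose in control samples (-0.21 with total counts, -0.39 with the block) and for the knockout at 16.7 mM (-0.074 without the 3 samples), *Hes1* for glucose with TPM (-0.35 and -0.40) and for the interaction with length-scaled counts (0.19), and *Ucn3* for the knockout at 2.8 mM in a fit of only these groups (-0.006) and for the interaction with TPM (-0.01). The causes were not tested.

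Over the fits that omit 1 sample, the log2 fold changes of *Ucn3* were -0.74 to -0.36 and -0.60 to -0.30 for glucose, -0.15 to 0.20 and -0.004 to 0.31 for the knockout, and -0.073 to 0.30 for the interaction. Those of *Aldh1a3* were 2.42 to 3.47 for glucose in the controls and 1.85 to 3.03 for the knockout at 16.7 mM, those of *Rest* -3.23 to -2.31 and -2.17 to -1.04 for glucose, and those of *Sox9* -0.59 to 0.79 for glucose in control cells and -0.36 to 0.78 for the knockout at 16.7 mM. Where an arm kept few samples, its spread was taken from all groups. Limma on TPM could not be fitted for *Sox9* and *Rest*, whose means were under 0.1 TPM, and a fit of only the groups compared left out *Rest* for the knockout at 16.7 mM. Depth limits *Rest* and *Sox9* most, which had samples with 0 and 1 counts.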
